A study of Rattus norvegicus with 2 samples.

Results

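The nuclear genes for the subunits of the oxidative phosphorylation complexes were compared between untreated AR42J cells and AR42J cells exposed for 20 min to 200 µM taurolithocholic acid 3-sulfate (TLC-S). Members were the genes whose symbol begins with Nduf (complex I), Sdha, Sdhb, Sdhc or Sdhd (II), Uqcr or Cyc1 (III), Cox4, Cox5, Cox6, Cox7 or Cox8 (IV) or Atp5 (V). The rule gave 94 of the 15577 named genes: 39 of complex I, 4 of complex II, 12 of complex III, 17 of complex IV and 22 of complex V. Of these, 17 were related copies or pseudogenes (symbols such as Ndufs6-ps1 or Atp5hl1) and 77 were subunit genes. Genes of the Ndufaf and Sdhaf assembly factors were set apart with the other assembly factors, and Emc8 and Dmac2, whose older symbols match the rule, were left out because they are not subunits.

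AR42J cells are a rat line that derives from an exocrine pancreatic tumour. TLC-S, a bile acid carrying a sulfate, serves in models of acinar injury by bile. Total RNA was labelled with Cy3 and read on one-colour arrays, 1 array for the control cells, which received no treatment, and 1 for TLC-S. The value of a gene was the RMA intensity of its target, the set of 5 probes that reads it, and ratios were taken as TLC-S over control on the log2 scale. With 1 array in each group there was no replicate check and no p-value, every difference below is between these 2 arrays, and the number of arrays limits the precision.

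Oxidative phosphorylation couples the transfer of electrons from NADH and succinate to oxygen, through complexes I to IV of the inner mitochondrial membrane, to the pumping of protons, and complex V uses the proton gradient to make ATP. Most subunits are nuclear genes, and the rest are encoded in mitochondrial DNA and were not analysed here. Acinar cells depend on this ATP for protein synthesis, secretion and the pumping of calcium, and bile acids are known to depolarise their mitochondria.

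Probes of random sequence read 44.7 in control and 40.5 in TLC-S, and 100 on both arrays was taken as the lower limit of a measured difference. The cells were checked against markers of the labelled type. Of 18 measured acinar secretory genes, from a list of 21, 0 reached 100 on both arrays, against 10174 of all 15577 genes. The amylase gene Amy2-3, which was not in that list, did reach 100 on both (mean log2 intensity 7.68, log2 ratio 0.36). The amylase genes Amy1 (mean log2 intensity 5.21) and Amy2a3 (64.0 in control and 64.8 in TLC-S) did not. The 3 trypsinogen genes lay between 5337 and 15742 in control and between 603 and 2183 in TLC-S. All 11 measured pan-leukocyte markers reached 100 on both arrays, with a median log2 ratio of 0.00, a range from -0.48 to 0.78, and 0 past 2-fold in either direction. The acinar secretory list thus did not bear out the labelled acinar type, whereas the trypsinogens were well above 100. The part of the leukocyte markers in the results below was not tested. In such bulk RNA, fewer cells of a type and less RNA per cell cannot be told apart.

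Members were mostly slightly higher in TLC-S. Of the 94 members, 75 had a log2 ratio above 0 (79.8%), against 59.3% of all genes, 66.3% of the 10174 genes that reached 100 on both arrays and 58.7% of the brightest 10% of genes. Without the copies, 59 of the 77 subunit genes were above 0 (76.6%), and of the 17 copies 16 were. The median log2 ratio of the 94 members was 0.37 (1.29-fold higher), with quartiles of 0.08 and 0.57. The same median was 0.15 over all genes, 0.25 over genes that reached 100 on both arrays, and 0.13 over the brightest 10% of genes. The members' median thus lay 0.12 above that of genes at 100 or more on both arrays, and it lay 0.11 above it after subtraction of a loess curve fitted to log2 ratio against signal, which lowered the median of all genes to 0.01 and that of the members to 0.10. After that subtraction 58 of the 94 members were above 0 (61.7%), and the 17 that changed sign all went from higher to lower. The share above 0 after loess was 50.6% of all genes, 49.8% of genes at 100 or more on both arrays and 49.3% of the brightest 10%. Without the copies, 45 of 77 subunit genes were above 0 after loess (58.4%).

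Few members differed by a large fold. Past 2-fold, 2 members were higher (8.67% of all genes were) and 2 were lower (5.37% of all genes were). These were Uqcrc1 and Cox4i2, and Cox6a2 and Cox8b, of which Cox8b was under 100 on both arrays. Past 1.5-fold, 20 members were higher, a share of 21.3% against a background of 23.5%, and 3 were lower, against 13.1%. Among genes that reached 100 on both arrays the shares past 1.5-fold were 27.8% higher and 9.61% lower. Among the brightest 10% of genes they were 19.3% and 6.87%, and past 2-fold 4.24% and 1.93%. The members lay closer together than genes in general. The SD of their log2 ratios was 0.42, and it was 0.37 over the 90 members at 100 or more on both arrays. It was 0.70 over all genes at that limit and 0.56 over the brightest 10% of genes. The members' SD is near the 0.42 found between different targets of the same gene over 580 genes read by several targets. Of the 94 members, 50 had a log2 ratio within 0.42 of 0, 40 were higher than that and 4 lower. The same count was not made over all genes, so it describes the members only.

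**Figure D1:**
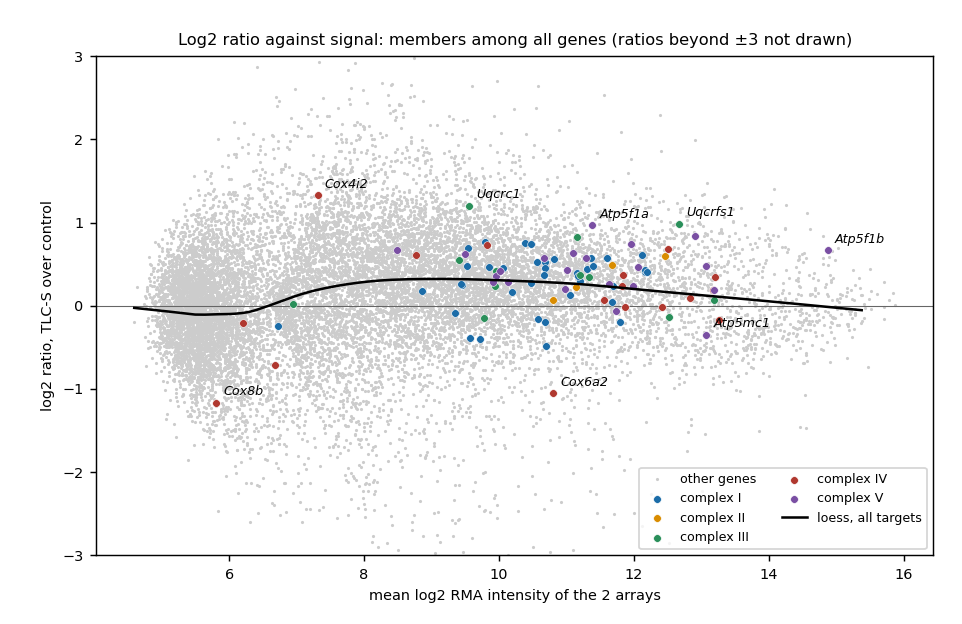
Log2 ratio of RMA intensity (TLC-S over control, vertical) against mean log2 intensity of the 2 arrays (horizontal), with all named genes in grey, the 94 members coloured by complex, and the loess curve over all targets in black. The members lay mostly in the bright part of the array, close to the curve, and Uqcrc1, Cox4i2, Cox6a2 and Cox8b stood farthest from 0.

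The medians differed between complexes, though none of these differences was tested. From the highest, the median log2 ratio was 0.45 for complex V, 0.39 for complex I, 0.36 for complexes II and III, and 0.10 for complex IV. The number of members above 0 was 20 of 22 for complex V, 31 of 39 for complex I, 4 of 4 for complex II, 10 of 12 for complex III and 10 of 17 for complex IV. The share was 58.8% for complex IV, next to the 59.3% of all genes, and 66.3% of genes that reached 100 on both arrays were above 0. Without its 3 members under 100, complex IV had a median of 0.21. After loess subtraction complex V was again the highest, at 0.22, and complex IV the lowest, at -0.04, so that the sign of complex IV turned.

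**Figure D2:**
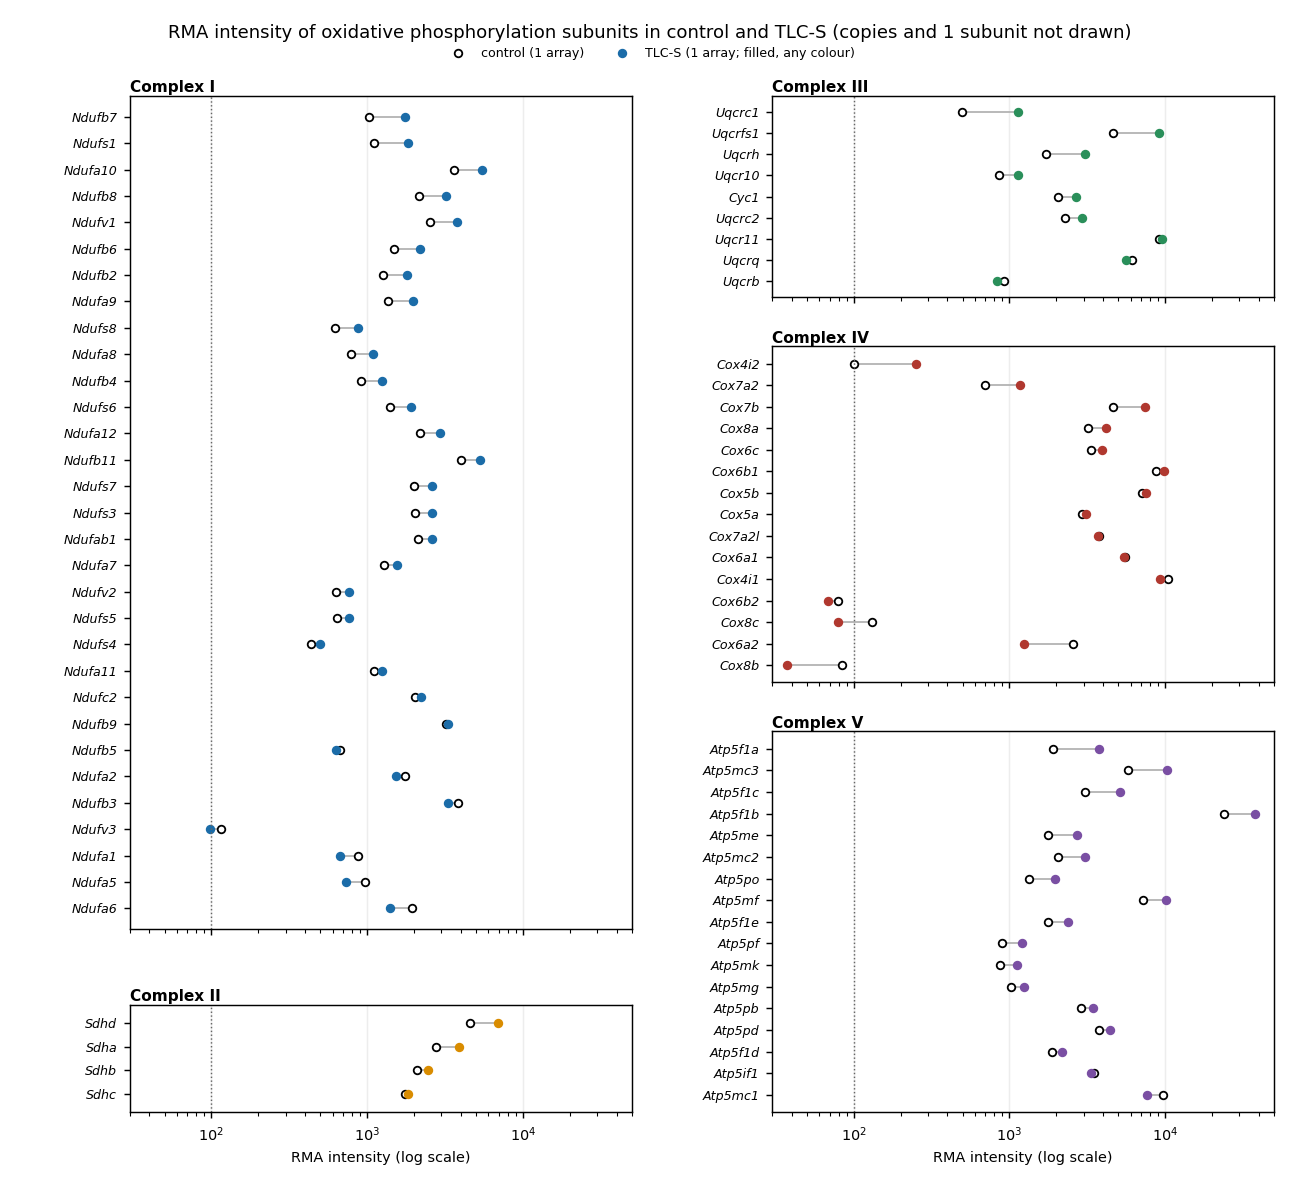
RMA intensity (horizontal, log scale) of 76 of the 77 subunit genes in control (open circles) and TLC-S (filled circles, one colour per complex), 1 array each, ordered within each complex by ratio. The dotted line marks 100. Most filled circles lie to the right of their open circle, whereas Ndufa6 of complex I, Cox6a2 of complex IV and Atp5mc1 of complex V lie to the left.

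Complex I takes electrons from NADH and passes them to ubiquinone. Its catalytic core in the matrix arm is made of 7 nuclear subunits that carry the flavin and the iron-sulfur clusters. All 7 were higher in TLC-S, with a median of 0.43 and a range from 0.26 to 0.74. Genes at 100 or more on both arrays had a median of 0.25, and 66.3% of them were above 0. Ndufs1, the large iron-sulfur subunit, went from 1101 to 1836 (log2 ratio 0.74), the highest of the core. Ndufv1, which binds NADH and the flavin, went from 2543 to 3780 (0.57). Ndufs8, with a pair of iron-sulfur clusters, went from 621 to 868 (0.48). Ndufs7, next to the site that reduces ubiquinone, went from 1986 to 2608 (0.39). Ndufs3 went from 2035 to 2614 (0.36). Ndufv2, an iron-sulfur subunit next to Ndufv1, went from 634 to 759 (0.26), the closest to 0, and was the only core subunit below 0 after loess subtraction (-0.06).

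The 25 accessory subunits, which surround the core and take part in its assembly and stability, went both ways. Of these, 18 were above 0 and 7 below it, with a median of 0.27 that turned to -0.02 after loess subtraction, whereas the median of the core stayed above 0, at 0.16. The highest accessory subunit was Ndufb7, a subunit on the intermembrane side, which went from 1033 to 1744 (log2 ratio 0.76). Next came Ndufa10, which has the fold of a nucleoside kinase, from 3601 to 5503 (0.61). The lowest was Ndufa6, which binds an acyl carrier protein, from 1955 to 1395 (-0.49). Ndufa5 went from 971 to 735 (-0.40), and Ndufa1, a small membrane subunit, went from 867 to 665 (-0.38). Ndufa1 was read by another target as well, which gave -0.49, so that its targets shared the direction. Ndufb4 likewise had a pair of targets, both at 0.45. Ndufab1, the acyl carrier protein itself, was at 0.30 and not lower beside Ndufa6. The other accessory subunits below 0 were Ndufb3 (-0.20), Ndufa2 (-0.19), Ndufb5 (-0.09) and Ndufv3, which went from 115 to 97.2, under the limit of 100, and was at least 1.15-fold lower. No complex I member passed 2-fold in either direction, against 8.67% of all genes higher and 5.37% lower.

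**Figure D3:**
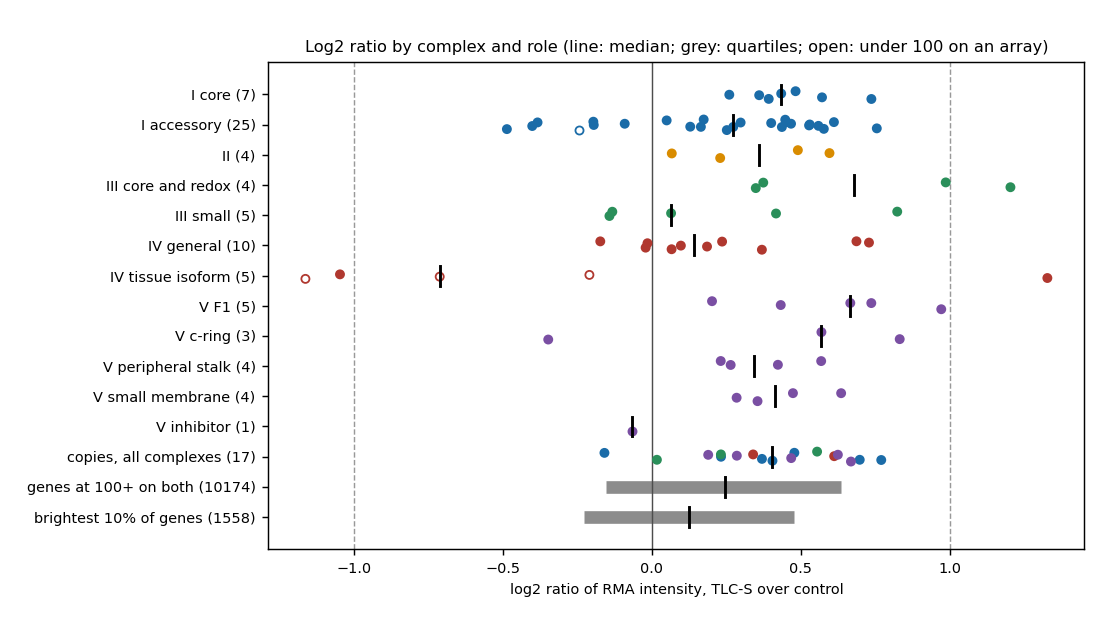
Log2 ratio of RMA intensity (TLC-S over control, horizontal) for each member, grouped by complex and role with the number of genes in brackets. Black lines are medians, grey bars the quartiles of genes at 100 or more on both arrays and of the brightest 10% of genes, open points members under 100 on an array, and dashed lines 2-fold. All 7 core subunits of complex I and all 5 F1 subunits of complex V lie to the right of 0, and the tissue isoforms of complex IV lie on both sides of 0, with 3 of the 5 drawn open.

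Complex II oxidises succinate, as an enzyme of the tricarboxylic acid cycle, and also feeds ubiquinone. Sdhd, a membrane anchor, went from 4577 to 6922 (log2 ratio 0.60), and Sdha, the flavoprotein that holds the active site, went from 2764 to 3884 (0.49). Sdhb, the iron-sulfur subunit, went from 2083 to 2443 (0.23), and Sdhc, the other anchor, went from 1740 to 1823 (0.07). All 4 were higher in TLC-S as measured, but Sdhb and Sdhc turned to -0.03 and -0.21 after loess subtraction. The anchors Sdhc and Sdhd, which sit side by side in the complex, thus had the smallest and the largest ratio of its subunits.

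Complex III carries electrons from ubiquinol to cytochrome c. Its subunits with the largest ratios were Uqcrc1, a core protein on the matrix side, and Uqcrfs1, the Rieske iron-sulfur protein. Uqcrc1 went from 495 to 1142, 2.30-fold higher, the largest difference of any member that was well above 100 on both arrays (log2 ratio 1.20, and 0.89 after loess subtraction). Uqcrfs1 went from 4603 to 9125, 1.98-fold higher and just short of 2-fold (0.99, and 0.84 after loess). The partner core protein Uqcrc2 went from 2289 to 2917 (0.35), and Cyc1, cytochrome c1, from 2058 to 2668 (0.37), so that all 4 core and redox subunits were higher in TLC-S, also after loess subtraction.

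The 5 small subunits of complex III had a median of 0.07, and of -0.05 after loess subtraction. Uqcrh, the hinge protein that helps cytochrome c to bind, stood apart, going from 1716 to 3039 (log2 ratio 0.82). Uqcr10 was at 0.42 and Uqcr11 at 0.07. Uqcrq (-0.13) and Uqcrb (-0.14) were slightly lower. The range within complex III therefore ran from slightly lower to 2.30-fold higher among proteins that assemble in equal numbers.

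Complex IV, cytochrome c oxidase, passes the electrons to oxygen. Of its 10 generally expressed subunits, 7 were above 0, with a median of 0.14 that turned to -0.01 after loess subtraction. Cox4i1, a regulatory subunit that binds nucleotides, went from 10465 to 9285 (log2 ratio -0.17). Cox5a went from 2942 to 3082 (0.07), and Cox5b, which binds zinc, went from 7060 to 7556 (0.10). These 3 subunits were thus nearly equal on both arrays. Cox6a1 (-0.02) and Cox7a2l, which takes part in joining complexes into supercomplexes (-0.01), were also near 0 and became slightly positive when the arrays were centred on their medians. Higher ratios were seen for Cox7a2, from 701 to 1162 (0.73), and Cox7b, from 4595 to 7401 (0.69). Cox8a was at 0.37, Cox6c at 0.24 and Cox6b1 at 0.19, the last by a target that the authors named otherwise.

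Several subunits of complex IV have isoforms restricted to certain tissues, and of these Cox6a2 and Cox4i2 were past 2-fold with both arrays at 100 or more. Cox6a2, the heart and muscle isoform of subunit VIa, read 2568 in control and 1243 in TLC-S, a value 2.07-fold lower (log2 ratio -1.05, and -1.33 after loess), while its general counterpart Cox6a1 gave 5513 and 5435. Cox4i2, the isoform of subunit IV known from lung and from hypoxic cells, was measured at 100.1 in control, at the limit, and at 251 in TLC-S, 2.51-fold higher (1.33, and 1.14 after loess), while its counterpart Cox4i1 was close to 0. The isoforms of each of these pairs thus differed in ratio, each by 1 target. Cox8c, an isoform known from testis, went from 131 to 79.8 and was at least 1.31-fold lower. Cox8b, a muscle isoform, was at 83.5 and 37.3 and Cox6b2, a testis isoform, at 79.4 and 68.7. Both were under 100 on both arrays, so no fold is given for them.

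Complex V, the ATP synthase, has a soluble F1 head that makes ATP, a membrane ring of c subunits turned by protons, and a stalk that holds the head. All 5 F1 subunits were higher in TLC-S, with a median of 0.67. Of genes at 100 or more on both arrays, 66.3% were above 0, and the median over all of them was 0.25. Atp5f1a, the alpha subunit, went from 1903 to 3734, 1.96-fold higher (log2 ratio 0.97). Atp5f1b, the catalytic beta subunit, went from 23825 to 37824 (0.67), and Atp5f1c, the gamma subunit of the rotating shaft, from 3071 to 5120 (0.74). The small subunits of the shaft had lower ratios, with Atp5f1e going from 1765 to 2383 (0.43) and Atp5f1d from 1885 to 2169 (0.20, turning to -0.07 after loess). Within F1 the alpha, beta and gamma subunits were therefore past 1.5-fold higher, and the small subunits Atp5f1e and Atp5f1d were not.

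The c subunit is encoded by 3 genes whose mature protein is known to be the same, and these genes went different ways. Atp5mc3 went from 5742 to 10226 (log2 ratio 0.83) and Atp5mc2 from 2052 to 3046 (0.57), both higher in TLC-S. Atp5mc1 went from 9696 to 7621 (-0.35), the only one of the ATP synthase's structural subunits that was lower. The signs were the same after loess subtraction, at 0.70, 0.32 and -0.47. These genes have related sequences, so that probes of one may also read another, and targets named as copies of them were Atp5mc1l2 (0.29) and Atp5mc2l2 (0.19). Atp5if1, which inhibits ATP hydrolysis by the synthase, gave 3479 and 3324 (-0.07), next to equal. The 4 peripheral stalk subunits lay between 0.23 (Atp5pd) and 0.57 (Atp5po), and the 4 small membrane subunits between 0.29 (Atp5mg) and 0.64 (Atp5me). Within complex V 7 of 22 members were past 1.5-fold higher (31.8%), near the 27.8% of genes that reached 100 on both arrays, and 0 were past 1.5-fold lower, against 9.61%.

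The 17 copies and pseudogenes, whose probes may read the parent transcript, were all at 100 or more on both arrays, with a median of 0.41 and a range from -0.16 to 0.77. Ndufs6-ps1 was at 0.37 beside 0.45 for Ndufs6, and Cox6b1-ps1 at 0.34 beside 0.19 for Cox6b1. The target that the authors' file names Ndufa13 is now assigned to Ndufa13-ps1 and was at -0.16, and that for Ndufs6-ps1 was named Ndufs6 there. Likewise the target for Cox6b1-ps1 was named Cox6b1 there, and the target read here as Cox6b1 had another symbol. The values of these genes and of their parents are therefore uncertain. Of all 94 members, 40 had a target from a predicted RefSeq record, with a median of 0.35, and 54 by curated records, with a median of 0.37. A further 10 subunit symbols, among them Cox7c, Ndufa4 and Ndufb10, had no named target and were not analysed here.

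Promoters were examined because respiratory genes are known for binding sites of NRF1 and of the ETS factor GABP. Most members of several complexes also had a log2 ratio above 0, as did 66.3% of genes that reached 100 on both arrays. Whether the members shared a regulator was not tested. The promoters, 250 bases before to 50 after the gene start, were those of RefSeq, assembly GRCr8, and 67 of the 77 subunit genes had one. Both strands were searched for the palindromic 10-base NRF1 motif (its letters are the capitals in the first set of windows), for CCGGAAG (ETS) and for CCAAT. None of these 3 motifs contains another. The NRF1 letters were found in 4 of 67 promoters (5.97%), against 0.852% of all 33469 promoters and 2.21% of the 7602 promoters of genes that reached 100 on both arrays. The ETS letters were found in 20 (29.9%), against 8.75% and 20.3%, and CCAAT in 24 (35.8%), against 37.5% and 38.6%. Genes with the ETS letters had a median log2 ratio of 0.36 and those without them 0.36 as well. The 4 promoters with the NRF1 letters are shown as 60-base windows upstream of the gene start, with the match in capitals.
Atp5mc2 (chr7:135678240-135678299, minus strand): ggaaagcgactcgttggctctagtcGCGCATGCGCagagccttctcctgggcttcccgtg
Atp5me (chr14:1464759-1464818, plus strand): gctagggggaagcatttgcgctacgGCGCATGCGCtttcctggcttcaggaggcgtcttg
Atp5po (chr11:44657508-44657567, minus strand): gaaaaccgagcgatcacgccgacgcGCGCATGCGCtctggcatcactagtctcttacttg
Ndufa11 (chr9:1637492-1637551, plus strand): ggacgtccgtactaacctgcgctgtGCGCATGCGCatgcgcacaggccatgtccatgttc
The Ndufa11 promoter held 2 overlapping matches, of which the first is in capitals. In 3 of these genes, all of complex V, the log2 ratio was close to 0.6 (Atp5mc2 0.57, Atp5me 0.64, Atp5po 0.57), and in Ndufa11 it was 0.17. The ETS letters are shown for 5 genes of complexes I to IV that were past 1.5-fold higher, with the match in capitals on either strand, and Sdhd had 2 matches.
Ndufs1 (chr9:72073772-72073831, minus strand): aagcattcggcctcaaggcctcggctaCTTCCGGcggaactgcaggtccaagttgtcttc
Ndufb7 (chr19:41477292-41477351, minus strand): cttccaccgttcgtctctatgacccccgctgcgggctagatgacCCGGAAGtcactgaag
Sdhd (chr8:59850657-59850716, minus strand): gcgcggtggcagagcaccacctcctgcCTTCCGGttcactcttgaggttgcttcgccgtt
Uqcrh (chr5:134790933-134790992, minus strand): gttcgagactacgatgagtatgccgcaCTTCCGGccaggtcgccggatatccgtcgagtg
Cox7a2 (chr8:89601160-89601219, minus strand): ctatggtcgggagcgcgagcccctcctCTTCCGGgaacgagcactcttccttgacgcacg
A match describes letters in a window and is not a measured binding site. Of the 20 genes with the ETS letters, 5 were lower in TLC-S, namely Ndufa6, Ndufa1, Ndufa2, Cox4i1 and Uqcrq.

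Other genes of mitochondrial energy metabolism were read from 4 lists. The 36 measured assembly factors, of 47 listed, had a median log2 ratio of 0.22, near the 0.25 of genes at 100 or more on both arrays, and -0.07 after loess subtraction. Of these, 6 were past 2-fold higher and 0 past 2-fold lower, against 10.0% and 4.37% of genes at that limit. Ndufaf6 and Ndufaf1, assembly factors of complex I, went from 342 to 820 (2.40-fold) and from 170 to 383 (2.25-fold). Atpaf2, which assembles the F1 head, went from 864 to 1730, just past 2-fold. The others were Ndufaf7, Acad9 and Coa7. The lowest assembly factor was Cox20, from 875 to 641 (-0.45).

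The 19 enzymes of the tricarboxylic acid cycle and pyruvate oxidation, all measured, had a median of 0.50, with 18 above 0, 4 past 2-fold higher and 0 past 2-fold lower. Of genes that reached 100 on both arrays, 66.3% were above 0, 10.0% past 2-fold higher and 4.37% past 2-fold lower. Dlst, of the oxoglutarate dehydrogenase complex, went from 650 to 1504 (2.31-fold), Fh, fumarase, from 1038 to 2116 (2.04-fold), and Pdhb, of pyruvate dehydrogenase, from 2868 to 5804 (2.02-fold). The only enzyme below 0 was Dld, the shared E3 subunit of those dehydrogenase complexes, from 1363 to 889 (-0.62). After loess subtraction the median was 0.24 and 13 of 19 were above 0 (68.4%). The share after loess was 49.8% of genes at 100 or more on both arrays and 50.6% of all genes.

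The 14 electron carriers and exchange proteins had a median of 0.41. Over the 13 at 100 or more on both arrays it was 0.40, against 0.25 for all genes at that limit. After loess subtraction these medians were 0.15 and -0.002. Of the 14, 2 were past 2-fold higher and 0 past 2-fold lower, against 10.0% and 4.37% of genes at that limit. The only one below 0 was Etfdh (-0.29). Vdac1, the outer membrane channel, went from 1886 to 4674 (2.48-fold higher), and Ucp2, an uncoupling protein of the inner membrane, went from 12850 to 29751 (2.32-fold higher). Cycs, cytochrome c, which links complexes III and IV, went from 3458 to 4233 (0.29). The adenine nucleotide carriers Slc25a4, Slc25a5 and Slc25a6, which exchange ATP for ADP, were at 0.10, 0.53 and 0.40. The 15 regulators of respiratory gene transcription had a median of 0.34. Over the 13 at 100 or more on both arrays it was 0.18, which turned to -0.12 after loess subtraction. Of the 15, 0 were past 2-fold, against 8.67% of all genes higher and 5.37% lower, too few regulators to tell from that background. Nrf1 went from 311 to 481 (0.63) and Gabpa, the DNA-binding subunit of GABP, from 779 to 1146 (0.56). Esrra (-0.29) and Creb1 (-0.43) were lower, and the coactivator Ppargc1a was under 100 on both arrays, at 34.5 and 56.8.

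**Figure D4:**
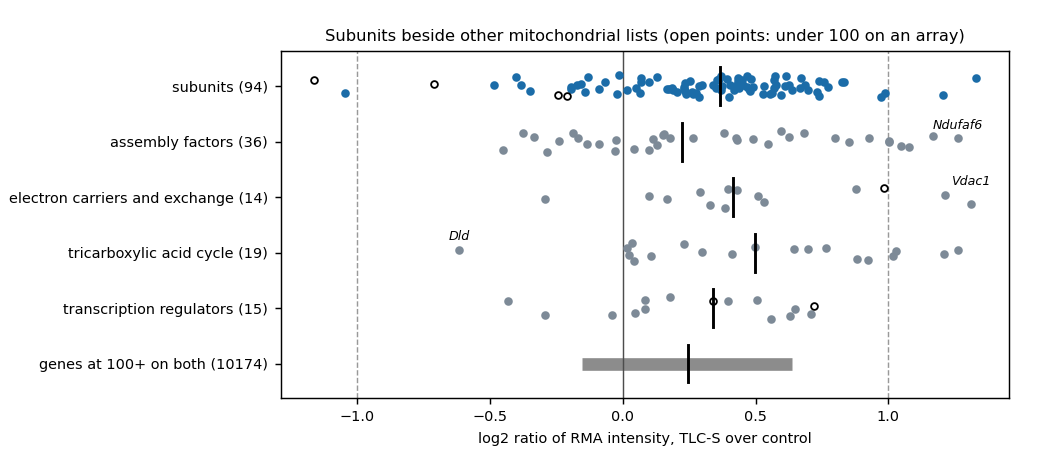
Log2 ratio of RMA intensity (TLC-S over control, horizontal) for the 94 members, copies included, and 4 lists of other mitochondrial genes. The number of genes is in brackets. Black lines are medians, the grey bar shows the quartiles of genes at 100 or more on both arrays, open points are genes under 100 on an array, and dashed lines mark 2-fold. Of the 94 members 4 lie beyond 2-fold, among them Cox8b, which was under 100 on both arrays. Of the 19 tricarboxylic acid cycle genes 4 lie beyond 2-fold.

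In the authors' deposited table of higher targets, 2 members were listed, Uqcrc1 at 2.30-fold and Cox4i2 at 2.51-fold, and in the authors' deposited table of lower targets 1 member was listed, Cox6a2 at 2.07-fold. The authors' deposited table of cellular components, made from their listed genes, gave mitochondrion 101 of 1288 genes with a p-value of 1.88e-05, and of the members that term held Uqcrc1 and Cox4i2 only. Of its 97 terms, 4 were mitochondrial and 0 named the respiratory chain or the ATP synthase. That p-value is not the false discovery rate (FDR), which the authors also give per term and which is not reported here. The authors' listed genes rest on 1 array per group.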

How the data were processed

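Total RNA of AR42J cells, 1 control and 1 TLC-S sample, was hybridised to one-colour NimbleGen arrays, per the labels' protocols. Each deposited file holds a linear intensity for every target, summarised by RMA, which the submitters' processing notes name without a version. How background was corrected is not given in the sources used here. Per the file headers, the authors' lists of higher and lower targets carry an absolute fold (a ratio) and a log2 fold. The authors' deposited cellular component table gives a p-value and an FDR per term.

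Of 26419 targets, 9747 took their name by RefSeq accession and 4950 by gene ID, both from a gene table of assembly GRCr8, 1644 kept the authors' symbol and 10078 stayed unnamed. Named genes numbered 15577. A gene with several targets took the target with the highest mean log2 intensity. Any member may be named; core subunits, tissue isoforms, members past 2-fold or under 100, and the extremes of each complex carry both intensities. The members and lists were chosen with earlier results of these data known. A gene with 1 array under an intensity of 100 is given as a bound against 100.

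No test between groups was run, since each group has 1 array. Other settings tried were median centring, an offset of 50, a loess curve (span 0.3, with 3 robust iterations), the series value table, the authors' table of all targets, other targets of a gene, a limit of 100 on both arrays and narrower or wider member lists. The loess step and fold counts were tested on simulated data. The planned comparison of proteins was not run, and the values of some single genes are not reported here. The number of unmapped value columns was 0. Work was done in Python 3.11.15 with statsmodels 0.14.6 for loess, pandas 2.3.3 and numpy 2.4.6 for tables, and matplotlib 3.10.9 for figures.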

Additional observations from a re-analysis of the deposited data

How the results depend on the processing

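Loess subtraction lowered the median log2 ratio of all members from 0.37 to 0.10 (0.11 when the curve was drawn over targets at 100 or more, chosen after seeing the data), that of complex I to 0.13 and that of complex V to 0.22. Past 2-fold higher there were 2 members, 4 after median centring and 1 after loess. Past 2-fold lower there were 2, and 1 in the authors' table of all targets, after median centring, with an offset of 50 and among members at 100 or more on both arrays. Past 1.5-fold higher there were 20, and 6 after loess. Past 1.5-fold lower there were 3, and 1 in the authors' table and at the limit of 100, and 6 after loess. Of all 15577 genes, 2519 were past 1.5-fold higher after loess and 2546 past 1.5-fold lower. The limit and that table test fewer genes; otherwise the cause was not tested. No paired analysis was possible because there was a single array for each condition, which also left no replicate to leave out.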
